A study of Mus musculus with 8 samples.

Results

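A set of 9 genes that mark pericytes, smooth muscle cells and fibroblasts were read in 4T1 tumour cells, a murine line from a triple-negative mammary tumour. They were Rgs5, Pdgfrb, Pdgfra, Acta2, Tagln, Cnn1, Thy1, Mcam and Pdpn, 9 of the 24677 genes in the deposited tables. The set was chosen from the measured changes of Rgs5 and Pdgfrb between these groups, so the values of those 2 genes are given as a description with no test. The other 7 were added by name as markers of the same cell types. All 9 are protein-coding genes.

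Bulk RNA-seq of total RNA was done on 8 libraries in 4 groups of 2. The overexpressing group (Tyro3_OE in the plots) held parental 4T1 cells with Tyro3 overexpressed. The knockout group (Tyro3_KO) held 4T1 cells resistant to anti-PD1, an immune checkpoint antibody, in which Tyro3 was knocked out. The resistant group held anti-PD1 resistant cells with control genotype, and the parental group held parental cells with control genotype. All cells were grown in DMEM with 10% fetal bovine serum and had no treatment, so the resistant cells were not under the antibody as far as the labels say. The labels do not say how Tyro3 was overexpressed or knocked out, whether a line was a clone or a pool, or whether replicates were grown as separate cultures. The p-values measure only the spread between replicate libraries, which may be technical. Overexpressing cells were compared with parental cells, knockout cells with resistant cells, resistant cells with parental cells, and knockout cells with parental cells; the last pair differs in both resistance and Tyro3. The comparisons share libraries, and agreement between those with a common group is given no weight.

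Pericytes wrap the small vessels and, with vascular smooth muscle, form the mural cells of a vessel wall. Endothelial cells release PDGF-BB, which acts on the receptor kinase PDGFR-beta of pericytes and holds them at the vessel, while PDGFR-alpha marks most fibroblasts and answers PDGF-AA and PDGF-CC. Contractile mural cells and activated fibroblasts make smooth muscle actin (Acta2), transgelin (Tagln) and calponin (Cnn1) under SRF, a transcription factor that works with myocardin or the MRTF cofactors. Tumour cells that have lost epithelial traits can carry some of these markers.

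Counted reads per library ranged over 18001482 to 27261282, and 14513 genes had enough reads to be tested. Tyro3, a TAM receptor kinase, had 107 and 103 CPM (counts scaled for library size by TMM) in overexpressing cells, 3.81 and 3.99 CPM in knockout cells, 20.7 and 21.2 CPM in resistant cells, and 25.7 and 24.4 CPM in parental cells. Its levels followed the labels of both constructs, with 98 and 79 reads left in the knockout libraries. Of the epithelial markers, Krt8 had 217 to 540 CPM and Krt18 257 to 442 CPM over the 8 libraries, while Epcam had at most 1.32 CPM and Cdh1 (E-cadherin) at most 4.01 CPM. Of 12 lymphocyte markers, all 12 stayed under 10 reads in every library, as did 8 of 12 macrophage markers, Ptprc and Adgre1 among them, and 6 of 12 endothelial markers, among them Pecam1, Cdh5 and Kdr. The summed macrophage list, mostly Cd14 and Cd68, was 41.0 to 43.7 CPM in overexpressing cells, 58.9 to 64.0 in knockout cells, 27.6 to 31.6 in resistant cells and 58.4 to 63.8 CPM in parental cells. Among 18 pericyte and mural markers outside the 9 genes, 13 were under 10 reads in every library, including Cspg4 (NG2), Abcc9, Kcnj8, Higd1b and Vtn. In bulk samples fewer cells of a type and less RNA per cell cannot be told apart.

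The sequence before the start site is shown for 3 of the genes, because their reads were absent or nearly absent in some groups or in all of them: Rgs5 and Pdpn, which had 0 reads in some groups, and Acta2, the defining smooth muscle gene, which had at most 5 reads in any library. The 250 bases before each start come from RefSeq (GRCm38.p6) and are written 5′ to 3′ on the gene's strand. They cover chr1:169655251-169655500 (+) for Rgs5, chr4:143299565-143299814 (−) for Pdpn and chr19:34255374-34255623 (−) for Acta2. Capitals mark an MCAT element, the letters CATTCC on either strand, a motif found in promoters of muscle genes.
Rgs5: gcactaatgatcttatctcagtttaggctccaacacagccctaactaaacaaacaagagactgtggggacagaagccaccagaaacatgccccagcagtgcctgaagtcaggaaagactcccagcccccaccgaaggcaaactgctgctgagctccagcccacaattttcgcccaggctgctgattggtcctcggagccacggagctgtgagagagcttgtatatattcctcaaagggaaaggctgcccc
Pdpn: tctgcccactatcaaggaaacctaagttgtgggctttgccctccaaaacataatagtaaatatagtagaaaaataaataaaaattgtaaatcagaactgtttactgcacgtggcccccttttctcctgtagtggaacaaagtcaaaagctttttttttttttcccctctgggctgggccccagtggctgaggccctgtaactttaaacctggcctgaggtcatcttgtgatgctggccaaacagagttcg
Acta2: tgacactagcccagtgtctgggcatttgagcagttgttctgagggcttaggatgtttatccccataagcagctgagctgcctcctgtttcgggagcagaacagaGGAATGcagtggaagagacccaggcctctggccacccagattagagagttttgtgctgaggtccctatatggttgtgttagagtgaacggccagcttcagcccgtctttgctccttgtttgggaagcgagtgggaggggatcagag
The table of sequences held 6 of the 9 genes, the others being Pdgfra, Cnn1 and Mcam. The CArG box, the motif that SRF binds, was searched in its strict form on both strands and matched in 0 of these 6 windows and in 1.47% of 32851 mouse promoters of the same length. With 1 letter off that form, the Acta2 window held ccctatatgg, 84 to 75 bases before the start, and ccttgtttgg, 34 to 25 bases before it. Both distances count from the RefSeq start used for the window, which lies upstream of the Acta2 gene span given below. Such near matches stood in 1 of the 6 windows and in 17.5% of all promoters. The MCAT letters matched in Acta2 alone of the 6, and in 12.6% of all promoters. A match is a description of letters, and no match says only that the letters are not in this window.

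Rgs5, a GTPase-activating protein of the R4 family that shortens G-protein signals and a marker of pericytes, lies at chr1:169655501-169695813 (GRCm38, plus strand). It had 83 and 114 reads in overexpressing cells, 42 and 31 reads in knockout cells, 0 and 0 reads in resistant cells, and 0 and 0 reads in parental cells. The gene was thus read in both engineered groups and in neither control group. In CPM it stood at 3.34 and 4.57 in overexpressing cells (3.96 ± 0.867, SD, n = 2), at 1.63 and 1.57 in knockout cells (1.60 ± 0.0474), and at 0 in the 4 libraries of the control groups. Against a floor of 3 reads in each library at 0, overexpressing cells were at least 23.8-fold higher than parental cells. Knockout cells were at least 11.9-fold higher than resistant cells and at least 9.63-fold higher than parental cells. These bounds are descriptions, since the gene was chosen for this pattern. Per length, overexpressing cells had 0.717 and 0.985 FPKM of Rgs5 and knockout cells 0.350 and 0.335 FPKM, a low level even where it was read.

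Pdgfrb encodes PDGFR-beta and is the marker most used for pericytes. It lies at chr18:61045150-61085061 (GRCm38, plus strand). It had 842 and 833 reads in overexpressing cells, 337 and 257 in knockout cells, 1116 and 1048 in resistant cells, and 141 and 174 in parental cells. That is 33.9 and 33.4 CPM in overexpressing cells, 13.1 and 13.0 CPM in knockout cells, 49.4 and 47.3 CPM in resistant cells, and 8.37 and 8.93 CPM in parental cells. The order ran from resistant to overexpressing to knockout to parental cells, and no library of one group overlapped another group. The log2 fold change was 1.96 (SE 0.0978) for overexpressing against parental cells and -1.89 (SE 0.0853) for knockout against resistant cells. For resistant against parental cells it was 2.48 (SE 0.0952), and for knockout against parental cells 0.59 (SE 0.112). Unlike Rgs5, which was read in knockout and not in resistant cells, Pdgfrb was lower in knockout than in resistant cells, while both genes were higher in overexpressing than in parental cells. The 2 genes that led to the choice of this set therefore did not run in parallel across the 8 libraries.

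**Figure D1:**
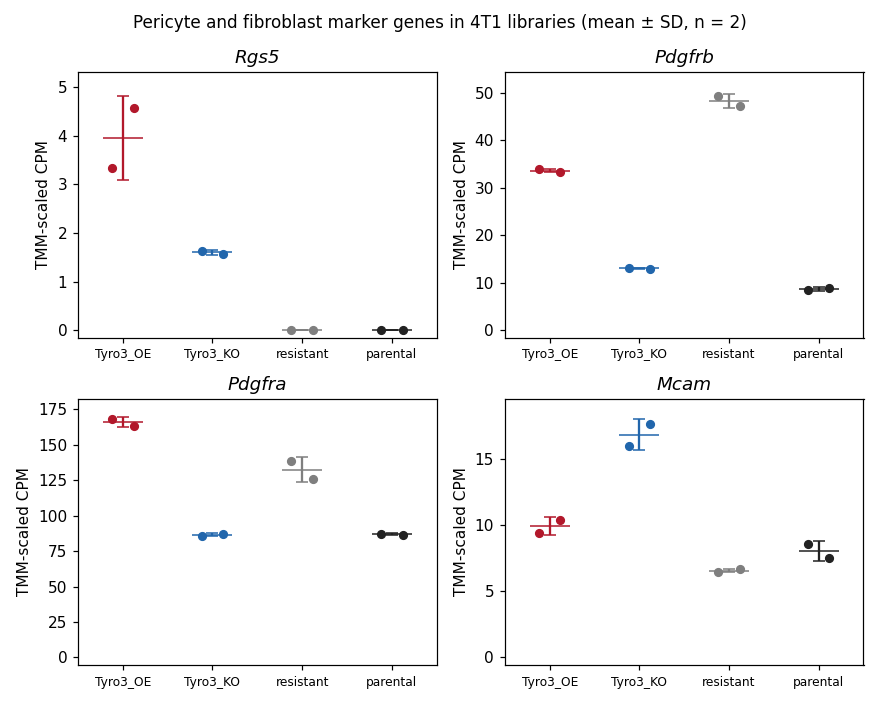
TMM-scaled CPM (vertical axis) of Rgs5, Pdgfrb, Pdgfra and Mcam in the 4 groups; points are libraries, and the bar and whiskers are the mean and SD (n = 2). Rgs5 was at 0 in resistant and parental cells, Pdgfrb and Pdgfra were high in overexpressing and resistant cells, and Mcam was highest in knockout cells at 16.1 and 17.7 CPM.

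Pdgfra encodes PDGFR-alpha, the receptor found on fibroblasts, and lies at chr5:75152292-75198215 (GRCm38, plus strand). It had 168 and 163 CPM in overexpressing cells (166 ± 3.52, SD, n = 2), 85.7 and 87.3 CPM in knockout cells (86.5 ± 1.17), 139 and 126 CPM in resistant cells (132 ± 8.90), and 87.4 and 86.7 CPM in parental cells (87.0 ± 0.493). Knockout and parental libraries overlapped, and the libraries of overexpressing and of resistant cells lay above both. Pdgfra rose in overexpressing against parental cells by a log2 fold change of 0.93 (SE 0.0487, edgeR adjusted p = 2.67e-21). It fell in knockout against resistant cells by 0.61 on the log2 scale (SE 0.0486, edgeR adjusted p = 2.51e-15) and rose in resistant against parental cells by 0.61 (SE 0.0497, edgeR adjusted p = 8.44e-15). Between knockout and parental cells the difference was -0.01 (SE 0.0515, edgeR adjusted p = 0.922), so no difference was found. Of all genes tested, 32.5% were called higher and 33.7% lower in overexpressing against parental cells, 37.1% higher and 35.6% lower in knockout against resistant cells, 35.1% higher and 36.1% lower in resistant against parental cells, and 18.1% higher and 18.3% lower in knockout against parental cells. With upper-quartile scaling in place of TMM, 60.3% of the calls in overexpressing against parental cells were higher, against 49.1%.

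Per length, Pdgfra was the highest of the 9 genes in every library, with group means of 16.2 FPKM in overexpressing cells, 8.41 in knockout cells, 12.9 in resistant cells and 8.43 in parental cells. Pdgfrb followed in overexpressing cells at 6.0 FPKM and in resistant cells at 8.63 FPKM, but in knockout cells (2.32 FPKM) and parental cells (1.54 FPKM) it was below Mcam. Both receptors were thus at their highest in the same 2 groups, and Pdgfrb spanned the wider range in fold terms. FPKM is the authors' deposited count per length and library total, and it is used here for comparisons between genes.

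**Figure D2:**
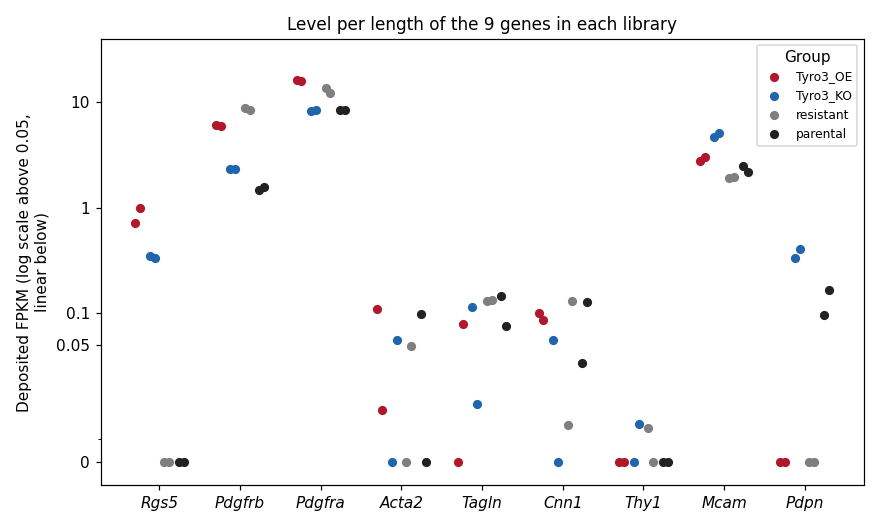
Deposited FPKM of the 9 genes in each library (vertical axis, logarithmic above 0.05 and linear below), coloured by group with 2 points per group. Pdgfra lies highest in all libraries, Pdgfrb and Mcam lie between it and Rgs5, and Acta2, Tagln, Cnn1 and Thy1 lie near the floor in all 4 groups.

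The genes for PDGF itself were read in the same cells. Of the 4 tested genes of this list, which includes the receptor-like gene Pdgfrl, 3 were called higher and 0 lower in overexpressing against parental cells, with a median log2 fold change of 1.18 against 0.03 for all genes. In knockout against resistant cells 1 was called higher and 2 lower (median -0.35), in resistant against parental cells 1 higher and 3 lower (median -0.54), and in knockout against parental cells 0 higher and 2 lower (median -0.28). In the order of these comparisons, the shares over all genes were 32.5% higher and 33.7% lower, 37.1% and 35.6%, 35.1% and 36.1%, and 18.1% and 18.3%. Pdgfc, the gene of the PDGF-CC ligand of PDGFR-alpha, had 18.5 and 18.8 CPM in overexpressing cells, 4.66 and 3.89 CPM in knockout cells, 11.2 and 10.9 CPM in resistant cells, and 4.16 and 4.42 CPM in parental cells. It rose in overexpressing against parental cells by 2.12 (SE 0.137, edgeR adjusted p = 5.05e-18), fell in knockout against resistant cells by 1.35 (SE 0.141, edgeR adjusted p = 1.13e-11) and rose in resistant against parental cells by 1.36 (SE 0.148, edgeR adjusted p = 3.85e-11), all on the log2 scale. Its groups had the order of Pdgfra, with knockout and parental cells lowest. Pdgfb, the ligand gene of PDGFR-beta, had 57.6 and 53.3 CPM in overexpressing cells, 20.3 and 19.4 CPM in knockout cells, 30.3 and 30.4 CPM in resistant cells, and 49.4 and 44.0 CPM in parental cells. It was lower in resistant than in parental cells by a log2 fold change of -0.62 (SE 0.0762, edgeR adjusted p = 1.11e-09), where its receptor gene was higher. In knockout against resistant cells Pdgfb fell by 0.61 on the log2 scale (SE 0.0826, edgeR adjusted p = 1.05e-08). Pdgfa, the gene of PDGF-AA, differed by 0.03 between overexpressing and parental cells (SE 0.0688, edgeR adjusted p = 0.676, or 0.0231 with upper-quartile scaling) and fell by 0.47 in resistant against parental cells (SE 0.072, edgeR adjusted p = 1.53e-07). Pdgfrl, a secreted receptor-like protein gene, had 25.5 and 28.9 CPM in overexpressing cells, 6.14 and 6.06 CPM in knockout cells, 2.17 and 2.12 CPM in resistant cells, and 5.58 and 6.52 CPM in parental cells. It was higher both in overexpressing than in parental cells (log2 fold change 2.16) and in knockout than in resistant cells (1.51). Pdgfd had 0 reads in all libraries.

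Mcam, the gene of the adhesion receptor CD146 of endothelial and mural cells, lies at chr9:44134469-44142727 (GRCm38, plus strand). It had 9.46 and 10.4 CPM in overexpressing cells (9.94 ± 0.676, SD, n = 2), 16.1 and 17.7 CPM in knockout cells (16.9 ± 1.18), 6.50 and 6.67 CPM in resistant cells (6.59 ± 0.122), and 8.61 and 7.55 CPM in parental cells (8.08 ± 0.753). Knockout libraries lay above all others and resistant libraries below all others. Mcam rose in knockout against resistant cells by a log2 fold change of 1.35 (SE 0.125, edgeR adjusted p = 3.24e-13) and in knockout against parental cells by 1.06 (SE 0.126, edgeR adjusted p = 2.25e-09). The overexpressing libraries lay above the parental ones, and the log2 fold change was 0.30 (SE 0.133, edgeR adjusted p = 0.0413). That call was lost in 5 of the 15 alternatives, with an adjusted p of 0.127 by DESeq2, 0.294 without parental replicate 2 and 0.246 without overexpressing replicate 2. Between resistant and parental cells the log2 fold change was -0.29 (SE 0.143, edgeR adjusted p = 0.0674), which did not pass, although without parental replicate 2 it did at -0.39 (adjusted p = 0.0433). Mcam is also an endothelial marker. The summed endothelial list, mostly Flt1, was 50.6 to 53.9 CPM in overexpressing cells, 46.7 to 47.1 in knockout cells, 34.6 to 36.7 in resistant cells and 58.1 to 65.6 CPM in parental cells, with Kdr and Emcn at 0 in every group. The sum was higher in knockout than in resistant cells, as Mcam was, and lower in knockout than in parental cells, where Mcam was higher. Tie1, a receptor gene of that list, had 0.0805 and 0.160 CPM in overexpressing cells, 3.46 and 3.43 CPM in knockout cells, 1.33 and 1.04 CPM in resistant cells, and 0.772 and 1.28 CPM in parental cells, highest in knockout cells as Mcam was. Other tested genes of the list differed from Mcam. With RLE scaling, Egfl7 fell in knockout against resistant cells by 0.528 on the log2 scale (edgeR adjusted p = 0.00194). Flt1 fell in knockout against parental cells by 0.566 (edgeR adjusted p = 5.31e-08), and Esam was not called in either comparison. The part of these markers in the Mcam values was not tested.

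Pdpn, the gene of podoplanin, a mucin-like protein of fibroblasts, lymphatic endothelium and invading tumour edges, lies at chr4:143267431-143299564 (GRCm38, minus strand). It had 0 and 0 reads in overexpressing cells, 16 and 15 reads in knockout cells, 0 and 0 reads in resistant cells, and 3 and 6 reads in parental cells. Reads came from knockout and parental cells only, and no overexpressing or resistant library had any. Against a floor of 3 reads in each library at 0, Pdpn was at least 5.15-fold higher in knockout than in resistant cells. In overexpressing cells it was at least 2.02-fold lower than in parental cells, and in resistant cells at least 1.81-fold lower than in parental cells. Both of these rest on 9 reads in the parental libraries. Knockout cells had 0.622 and 0.757 CPM and parental cells 0.178 and 0.308 CPM. Pdpn passed the filter on low counts only through the knockout libraries, where it was high, so its values are given as a description with no test.

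Acta2, the defining gene of smooth muscle and activated fibroblasts at chr19:34241090-34255336 (GRCm38, minus strand), had 5 and 1 reads in overexpressing cells, 0 and 2 in knockout cells, 0 and 2 in resistant cells, and 3 and 0 in parental cells. Tagln, at chr9:45929619-45936058 (minus strand), had 0 and 4 reads in overexpressing cells, 6 and 1 in knockout cells, 6 and 6 in resistant cells, and 5 and 3 in parental cells. Cnn1, at chr9:22099216-22109630 (plus strand), had 7 and 6 reads in overexpressing cells, 4 and 0 in knockout cells, 1 and 8 in resistant cells, and 2 and 7 in parental cells. These 3 genes of the contractile apparatus had at most 8 reads in any library. The groups overlapped for Acta2. For Tagln and Cnn1 any gap between groups was a matter of a few reads, and no difference was detectable at this depth. Thy1, a surface glycoprotein gene of fibroblasts at chr9:44043384-44048579 (plus strand), had 0 and 0 reads in overexpressing cells, 0 and 1 in knockout cells, 1 and 0 in resistant cells, and 0 and 0 in parental cells, unlisted genes being taken as 0. All 4 failed the filter on low counts and were not tested. Pcsk7 overlaps Tagln on the opposite strand and had 295 to 611 reads per library. Whether counting used the strand is not given in the sources used here, so the few Tagln reads cannot be told apart from reads of that gene.

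**Figure D3:**
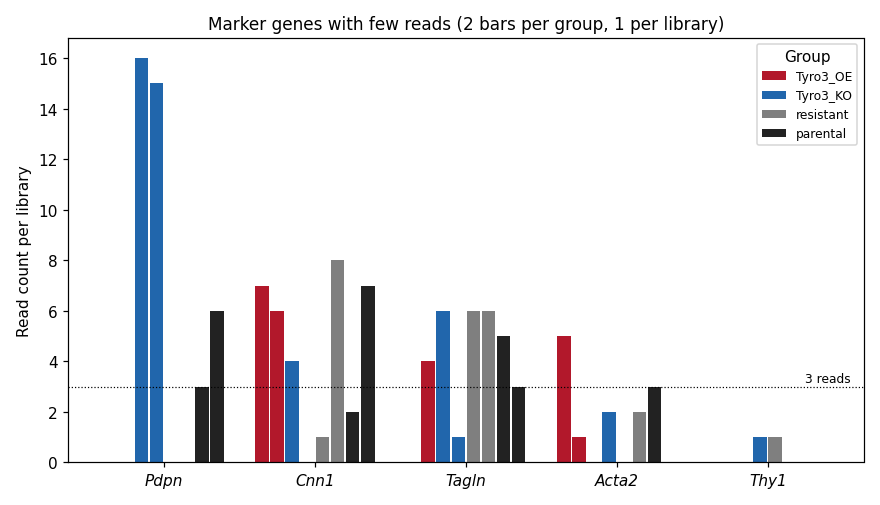
Reads per library (vertical axis) for the 5 genes with the fewest reads, with 2 bars per group and the floor of 3 reads as a dotted line. Pdpn reached 16 and 15 reads in knockout cells and 0 in overexpressing and resistant cells, while Cnn1, Tagln, Acta2 and Thy1 stayed at 8 reads or fewer in all groups.

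Of the 9 genes, 5 passed the filter: Rgs5, Pdgfrb, Pdgfra, Mcam and Pdpn. Rgs5 and Pdpn passed only through groups in which they were high, so no count or share over the 5 is read as a result. The tests given for the marker genes are those of Pdgfra and Mcam.

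The broader contractile list behaved differently from its 3 defining genes in level. Of its 16 genes 4 were under 10 reads in every library, Myh11, Myl9, Actg2 and Lmod1, and 12 were tested. In overexpressing against parental cells 2 were called higher and 6 lower (median log2 fold change -0.30), in knockout against resistant cells 8 higher and 1 lower (median 0.63), in resistant against parental cells 2 higher and 8 lower (median -0.44), and in knockout against parental cells 4 higher and 4 lower (median 0.29). The medians over all genes in these comparisons were 0.03, -0.02, 0.03 and 0.00. Shares called over all genes were 32.5% higher and 33.7% lower, 37.1% and 35.6%, 35.1% and 36.1%, and 18.1% and 18.3% in the same order. Most genes that fell in overexpressing against parental cells and rose in knockout against resistant cells code for broadly expressed actin-binding proteins. Tagln2, a transgelin paralogue outside muscle, had 494 and 489 CPM in overexpressing cells, 1084 and 1061 CPM in knockout cells, 189 and 176 CPM in resistant cells, and 821 and 813 CPM in parental cells. It rose in knockout against resistant cells by 2.56 on the log2 scale (SE 0.0434, edgeR adjusted p = 7.03e-40) and fell in resistant against parental cells by 2.16 (SE 0.0432, edgeR adjusted p = 3.05e-37). Cnn2, a calponin of non-muscle cells, had 188 and 189 CPM in overexpressing cells, 278 and 274 CPM in knockout cells, 159 and 156 CPM in resistant cells, and 307 and 295 CPM in parental cells. Smtn (smoothelin), Tpm1 (tropomyosin) and Vcl (vinculin) were also lower in overexpressing than in parental cells and higher in knockout than in resistant cells. Other genes of the list did not follow. With RLE scaling, Cald1 fell in knockout against resistant cells by 0.487 on the log2 scale (edgeR adjusted p = 8.13e-14). Csrp1 rose in overexpressing against parental cells by 0.264 (edgeR adjusted p = 3e-05). Mylk, the myosin light chain kinase gene, had 71 and 85 reads in overexpressing cells, 125 and 112 in knockout cells, 35 and 23 in resistant cells, and 57 and 78 in parental cells, and rose in knockout against resistant cells by 2.01 on the log2 scale (SE 0.256, edgeR adjusted p = 2.43e-09). Synpo2, an actin-bundling gene of muscle, had 57 and 67 reads in overexpressing cells, 40 and 32 in knockout cells, 24 and 26 in resistant cells, and 11 and 12 in parental cells. It rose in overexpressing against parental cells by 1.97 on the log2 scale (SE 0.388, edgeR adjusted p = 2.12e-05). Per length, Tagln2 stood at 231 and 230.0 FPKM in overexpressing cells and at 508 and 497 FPKM in knockout cells, while Tagln did not pass 0.15 FPKM in any library.

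Srf itself had 56.1 and 56.9 CPM in overexpressing cells, 92.5 and 94.8 CPM in knockout cells, 64.9 and 57.9 CPM in resistant cells, and 92.1 and 92.2 CPM in parental cells. All libraries of overexpressing and resistant cells thus lay below those of knockout and parental cells. Srf fell in overexpressing against parental cells by 0.70 on the log2 scale (SE 0.0563, edgeR adjusted p = 4.88e-15) and rose in knockout against resistant cells by 0.61 (SE 0.0553, edgeR adjusted p = 2.13e-13). Of its cofactors, Mrtfa rose in resistant against parental cells by 0.45 (SE 0.0686, edgeR adjusted p = 1.66e-07). Mrtfb was not called in any of the 4 comparisons with TMM (in resistant against parental cells the log2 fold change was 0.04, and 0.20 with upper-quartile scaling, where it was called), and Myocd, the myocardin gene, was at 0 reads in all libraries.

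**Figure D4:**
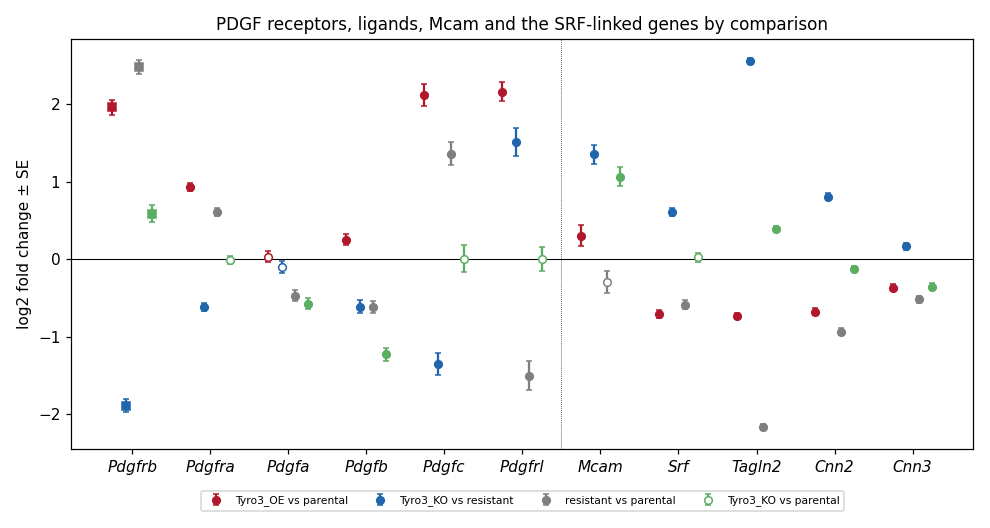
log2 fold changes with SE (vertical axis) in the 4 comparisons for the PDGF receptor, ligand and receptor-like genes (left of the dotted line) and for Mcam, Srf and 3 contractile-list genes (right). Filled circles passed an adjusted p under 0.05, open circles did not, and squares mark Pdgfrb, which has no test; Pdgfrb, Pdgfra and Pdgfc share their signs in the first 3 comparisons, and Srf, Tagln2 and Cnn2 have the opposite signs there.

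Few of the other pericyte genes could be tested. Of 18, 4 passed the filter, with 2 called higher and 0 lower in overexpressing against parental cells, 1 higher and 2 lower in knockout against resistant cells, 2 higher and 0 lower in resistant against parental cells, and 1 higher and 1 lower in knockout against parental cells. Over all genes the shares, in the same order, were 32.5% higher and 33.7% lower, 37.1% and 35.6%, 35.1% and 36.1%, and 18.1% and 18.3%. Notch3 and Anpep, both of this list, had few reads and passed only through groups in which they were high. No count over the 4 is therefore read as a result. Angpt1, the gene of the angiopoietin that mural cells send to the endothelium, had 5.07 and 3.61 CPM in overexpressing cells, 6.33 and 4.44 CPM in knockout cells, 2.12 and 3.25 CPM in resistant cells, and 2.20 and 1.69 CPM in parental cells. It was higher in both engineered groups than in their controls, by log2 fold changes of 1.17 (SE 0.263, edgeR adjusted p = 0.000145) for overexpressing against parental and 1.02 (SE 0.235, edgeR adjusted p = 0.000159) for knockout against resistant cells. Notch3, the Notch receptor of mural cells, had 15 and 10 reads in overexpressing cells, 0 and 0 in knockout cells, 11 and 18 in resistant cells, and 4 and 0 in parental cells. Its reads were thus low throughout and absent in knockout cells. The summed level of the 18 genes was 380 to 391 CPM in overexpressing cells, 325 to 329 in knockout cells, 379 to 386 in resistant cells and 385 to 400 CPM in parental cells, nearly all of it Mfge8, a milk-fat globule protein gene that mammary cells make too. The ranges of overexpressing, resistant and parental cells met or overlapped, and that of knockout cells was lowest.

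Of 20 fibroblast genes outside the 9, 9 were under 10 reads in every library, among them Col1a2, Col3a1, Lum, Fap and Postn, and 10 were tested. In overexpressing against parental cells 6 were called higher and 2 lower, in knockout against resistant cells 4 higher and 3 lower, in resistant against parental cells 6 higher and 3 lower, and in knockout against parental cells 5 higher and 3 lower. Their median log2 fold changes were 0.84, -0.08, 0.61 and 0.28 in these comparisons. Among all genes tested the shares called were 32.5% higher and 33.7% lower, 37.1% and 35.6%, 35.1% and 36.1%, and 18.1% and 18.3%. Fn1, the fibronectin gene, had 2489 and 2538 CPM in overexpressing cells, 1425 and 1414 CPM in knockout cells, 3498 and 3429 CPM in resistant cells, and 843 and 906 CPM in parental cells. Vim, the vimentin gene of the intermediate filaments of mesenchymal cells, had 1040 and 1025 CPM in overexpressing cells, 2114 and 2129 CPM in knockout cells, 603 and 563 CPM in resistant cells, and 2610 and 2680 CPM in parental cells. Fn1 thus had the group order of Pdgfrb, and Vim had that order turned round. Col1a1, the defining collagen gene of fibroblasts, had at most 32 reads in a library. With RLE scaling its log2 fold change was 2.63 for overexpressing against parental cells, so its parental reads were few. Its values are given as a description, and no count or median over the 10 tested genes is read as a result.

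Rgs5 was set beside its own family. Of the 9 other R4 RGS genes, 6 were under 10 reads in every library, and 3 were tested. Of these, 2 were called higher and 1 lower in overexpressing against parental cells, 1 higher and 1 lower in knockout against resistant cells, 1 higher and 2 lower in resistant against parental cells, and 0 higher and 2 lower in knockout against parental cells. All genes tested had shares of 32.5% higher and 33.7% lower, 37.1% and 35.6%, 35.1% and 36.1%, and 18.1% and 18.3% in that order. Rgs2 had 143 and 125 reads in overexpressing cells, 0 and 0 in knockout cells, 1 and 0 in resistant cells, and 12 and 15 in parental cells. Rgs2 was called higher in overexpressing than in parental cells (log2 fold change 2.85, SE 0.359, edgeR adjusted p = 2.68e-09), where Rgs5 was higher too, but it was not read in knockout cells, where Rgs5 was. Rgs16 had 6.60 and 6.89 CPM in overexpressing cells, 9.13 and 6.36 CPM in knockout cells, 4.25 and 4.73 CPM in resistant cells, and 20.4 and 18.4 CPM in parental cells, with the parental libraries above all others. Rgs3 had 15.9 and 16.5 CPM in overexpressing cells, 9.21 and 8.68 CPM in knockout cells, 16.3 and 15.1 CPM in resistant cells, and 10.8 and 10.8 CPM in parental cells, lowest in knockout cells. None of these 3 was higher in both engineered groups than in both control groups, as Rgs5 was.

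TGF-beta signals drive fibroblasts and mural cells towards the contractile state. Of the 12 genes of its list, 7 were called higher and 2 lower in overexpressing against parental cells (median log2 fold change 0.47), 2 higher and 9 lower in knockout against resistant cells (median -0.32), 8 higher and 3 lower in resistant against parental cells (median 0.55), and 6 higher and 1 lower in knockout against parental cells (median 0.14). The shares over all genes, in the same order, were 32.5% higher and 33.7% lower, 37.1% and 35.6%, 35.1% and 36.1%, and 18.1% and 18.3%. Tgfb3, a ligand gene, had 32.0 and 34.0 CPM in overexpressing cells, 26.4 and 23.1 CPM in knockout cells, 51.0 and 51.2 CPM in resistant cells, and 15.7 and 15.7 CPM in parental cells. The group order of Tgfb3 was that of Pdgfrb. Tgfb1, the main ligand gene, had 94.8 and 94.0 CPM in overexpressing cells, 83.7 and 82.5 CPM in knockout cells, 51.5 and 49.3 CPM in resistant cells, and 93.2 and 86.1 CPM in parental cells, so resistant cells were the lowest. Ccn2, a target gene of TGF-beta and of YAP, had 14.6 and 14.1 CPM in overexpressing cells, 20.7 and 16.6 CPM in knockout cells, 24.9 and 23.5 CPM in resistant cells, and 54.8 and 58.4 CPM in parental cells. It was lower in overexpressing than in parental cells by a log2 fold change of -1.98 (SE 0.0892, edgeR adjusted p = 1.22e-23), against the direction of most of the list.

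The partners of Pdpn, Thy1 and Mcam were all read. Of 11 genes, 3 were called higher and 6 lower in overexpressing against parental cells (median log2 fold change -0.13, or 0.00848 with upper-quartile scaling), 7 higher and 4 lower in knockout against resistant cells (median 0.63), 2 higher and 8 lower in resistant against parental cells (median -0.53), and 2 higher and 4 lower in knockout against parental cells (median 0.00). Beside these, the shares over all genes were 32.5% higher and 33.7% lower, 37.1% and 35.6%, 35.1% and 36.1%, and 18.1% and 18.3%. The podoplanin-binding ezrin, radixin and moesin genes (Ezr, Rdx and Msn) and Cd44 and Cd9 fell in overexpressing against parental cells and rose in knockout against resistant cells. Sdc4, a syndecan gene, did so too with TMM, but with upper-quartile scaling it differed by 0.00848 between overexpressing and parental cells and was not called. Lama5 and Lgals8, a laminin and a galectin gene, went the other way, rising in overexpressing against parental cells and falling in knockout against resistant cells. The integrin genes Itgav and Itgb3 were not called in overexpressing against parental cells with TMM and fell in knockout against resistant cells. For Msn the log2 fold changes were -0.68 (SE 0.042, edgeR adjusted p = 8.23e-19) and 0.89 (SE 0.0421, edgeR adjusted p = 3.5e-23) for overexpressing against parental and for knockout against resistant cells. Lama4, whose laminin chain is bound by Mcam, had 311 and 254 reads in overexpressing cells, 7 and 7 in knockout cells, 2 and 0 in resistant cells, and 6 and 4 in parental cells. Lama4 passed the filter on low counts only through the overexpressing libraries, where it was high. Its values are therefore given as a description with no test, and its calls within the list counts above support nothing.

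The 5 genes whose log2 CPM over the 8 libraries had the highest correlation (Pearson r) with Rgs5, among 11409 genes searched, were Ncstn (0.993), Saa3 (0.988), Ift88 (0.986), Ednra (0.984) and Tspan11 (0.983). Saa3, an acute-phase serum amyloid gene, had 43.4 and 38.9 CPM in overexpressing cells, 20.9 and 25.4 CPM in knockout cells, 0.973 and 1.76 CPM in resistant cells, and 2.08 and 1.80 CPM in parental cells. Ednra, the endothelin receptor gene of smooth muscle and pericytes, had 4.91 and 4.45 CPM in overexpressing cells, 2.41 and 3.08 CPM in knockout cells, 0.840 and 0.812 CPM in resistant cells, and 0.594 and 0.821 CPM in parental cells. Both were higher in the 2 engineered groups than in the 2 control groups. Genes most like Pdgfrb by the same measure included Zcchc24 (0.999), Gadd45a (0.999), Gpnmb (0.998) and Hspb11 (0.998). Gadd45a, a stress-response gene, had 85.0 and 76.7 CPM in overexpressing cells, 19.7 and 18.8 CPM in knockout cells, 137 and 139 CPM in resistant cells, and 11.2 and 10.8 CPM in parental cells. These values describe 8 libraries in 4 groups, in which a gene set by group alone gives a high r, and they carry no test.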

How the data were processed

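The authors deposited raw read counts per gene and FPKM in 3 tables of 4 libraries each, per the file headers. CASAVA, STAR and DESeq2, with GRCm38 and mm10, are named in the submitters' processing notes; what counted the reads, and whether by strand, is not given in the sources used here. Counts were joined by gene identifier (24677 genes, 20265 in every table), a gene unlisted in a table being taken as 0; listed reads of such genes in other tables were at most 1 for the same library. Groups came from the labelled phenotype and genotype. Counts were tested with edgeR 4.0.16 (glmQLFit, glmQLFTest) in R 4.3.3, with TMM scaling, filterByExpr and all 8 libraries in 1 fit. The threshold was 0.05 for p adjusted by Benjamini-Hochberg over 14513 genes; SE is the size of the log2 fold change divided by the square root of F. The test was run on simulated counts in which few genes changed, and only in the overexpressing group. The simulated spread between replicates was also larger than in these data, so the run gives no error rate for them. A group at 0 was set to 3 reads per library (0.117 to 0.178 CPM), which covers counting error only. The deposited FPKM values compared genes. The members and lists were chosen with earlier results of these data known. Genes named were the 9, Tyro3, list genes and, for Rgs5 and Pdgfrb, the 5 genes most alike over 8 libraries with a mean of at least 1 CPM in a group, of which 1 is not reported here. Replicates differed by more than counting noise (chi-square over degrees of freedom 2.02 to 5.68). Alternatives were DESeq2 1.42.0, RLE or upper-quartile scaling, other filters, 4-library fits, the replicate block and each library left out.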

Additional observations from a re-analysis of the deposited data

Results flagged for a closer look

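For 2 of the genes, the change of overexpressing against parental cells differed from the change of resistant against knockout cells. An overexpression in parental cells is here set against a knockout in resistant cells, so background and kind of manipulation cannot be told apart. For Pdgfra, the rise of overexpressing over parental cells exceeded the fall of knockout against resistant cells by 0.317 on the log2 scale (SE 0.0689, edgeR adjusted p = 0.000157). For Mcam the same difference was 1.66 (SE 0.182, edgeR adjusted p = 1.95e-10). Most of it came from the log2 fold change of 1.35 in knockout against resistant cells. The log2 fold change of 0.30 in overexpressing against parental cells lost its call in 5 of the 15 alternatives. This contrast was added after seeing the data, and 6776 of the 14513 genes passed it. Rgs5 had 73 reads in the 2 knockout libraries and 0 in the resistant libraries, while overexpressing cells also exceeded parental cells; that the gene was higher on both manipulations of Tyro3 was not tested.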

How the results depend on the processing

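The 4 counts of genes called stayed within 1.5 times in all alternatives. Leaving out each library in turn gave 8642 to 9690 genes in overexpressing against parental cells, 9696 to 10751 in knockout against resistant, 9644 to 10468 in resistant against parental and 4109 to 5447 in knockout against parental cells; called among Pdgfra, Mcam and Pdpn were then 2 to 3, 3 to 3, 2 to 3 and 1 to 1. In resistant against parental cells 1 marker gene was called, in place of 2, with at least 50 reads in 2 libraries and with the 4 libraries alone, since Pdpn was then not tested; as Pdpn passed the filter through the knockout libraries alone, these counts support nothing. Upper-quartile scaling moved the median of all genes to 0.17, -0.17, 0.19 and 0.012 in the 4 comparisons. The share of calls that were higher then became 60.3%, against 49.1% with TMM, in overexpressing against parental cells, 41.8% against 51.1% in knockout against resistant, 58.9% against 49.3% in resistant against parental, and 52.5% against 49.8% in knockout against parental cells. With it the median of the partner list turned to 0.00848 in overexpressing against parental cells, and that of the SRF list to 0.0297 there and to -0.0668 in knockout against resistant cells. The numbers of the replicates did not pair the libraries (correlation of deviations -0.00137 to 0.0342). With the replicate block 9549, 10485, 10274 and 5204 genes were called, and 3, 3, 2 and 1 of the marker genes. Pdpn was among the marker genes counted, so these 3, 3, 2 and 1 support nothing either. Depth limits Acta2, Tagln, Cnn1, Thy1 and Pdpn, whose reads per library were at most 16.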
